A study of Mus musculus with 6 samples.

Results

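The 10 genes described here, P4ha1, P4ha2, Plod1, Vegfa, Ero1l, Higd1a, Kdm3a, Mxi1, Ankrd37 and Ndrg1, are targets of the hypoxia response that lie outside glycolysis. They were chosen by name with earlier results of these data known, as were the other gene lists below. Counts set beside shares of all tested genes are therefore descriptions. All 10 were found among the 21448 genes of the table and among the 10533 genes tested. RNA was measured in primary lymphoma B cells of E mu-Myc transgenic mice, with 3 libraries of genotype wild type and 3 of genotype PRDM15 KO, called knockout here. In this model an immunoglobulin heavy chain enhancer drives a Myc transgene in B lineage cells, and both groups carry it. Per the labels' protocols, cells grown with IL7 were exposed for 24 hours to 50 nM 4-hydroxytamoxifen (OHT), which induces the deletion of PRDM15, or to its ethanol control, and were collected 3 days later. The library titles do not say which libraries received OHT. The protocols tie OHT to the deletion, so OHT and the deletion cannot be told apart. The sources used here give neither the age of the mice, nor the number of separate lymphomas, nor the oxygen level of the cultures. The design text calls the replicates biological, and p-values measure the spread between these libraries.

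Cells adapt to low oxygen through the transcription factor HIF, made of an oxygen-regulated alpha subunit and the constant partner ARNT. When oxygen is present, prolyl hydroxylases of the EGLN family mark the alpha subunit for destruction by the VHL ubiquitin ligase. When it is scarce, HIF binds the hypoxia response element, whose core is ACGTG or GCGTG, and raises genes for glycolysis and also for blood vessel growth, collagen hydroxylation, oxidative protein folding, mitochondrial adjustment and histone demethylation. In lymphoma cells, MYC and HIF share many metabolic targets.

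Libraries held 28852951 to 47255421 reads assigned to genes. Values are reads scaled to an effective library size (the CPM scale) and are not divided by gene length, so a higher value for one gene than for another does not show a higher level. For each gene, the 3 values of a group are listed in the order of replicates 1, 2 and 3, and a pair is the wild type and knockout library of equal number. Prdm15 itself was at 29.2, 47.3 and 41.3 in wild type against 40.2, 40.9 and 39.2 in knockout, with overlap (exact permutation p = 1, two-sided; 3 against 3 cannot go below 0.1). Reads summed per gene cannot reveal a lost exon, so the genotypes rest on the labels alone. The B cell markers were present in all libraries, with 12 of 12 tested and summed levels of 2008 to 2727 in wild type and 1985 to 2586 in knockout. Single B cell markers differed within the pairs: Cd22, a B cell receptor inhibitor, was lower in all 3 (log2 change -1.15, DESeq2 paired adjusted p = 4.58e-07, limma paired 0.0713), and Rag1, a recombinase of early B cells, was higher in all 3 (1.64, 0.0355 and 0.216). Vpreb1, of the surrogate light chain, was at 55.8 and 30.8 in wild type and knockout replicate 1 and between 223 and 269 in the other 4 libraries. Knockout replicates 2 and 3 also held myeloid transcripts: the 16 myeloid markers summed to 51.6, 193 and 135 in wild type against 32.6, 1998 and 1088 in knockout. Of these markers 12 passed the filter and 4, Mpo, Elane, S100a8 and S100a9, were under 1 in each library. Fibroblast markers, the usual source of collagen, summed to 3.89 to 17.0 over the 6 libraries, with 7 of the 9 under 1 in each library, and Col1a1 was at most 0.632. In bulk RNA, fewer cells of a type and less RNA per cell cannot be told apart. Libraries of the same replicate number deviated together from their group means, so each test was also run with the pair as a block, called paired here.

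A group of 6 genes, P4ha1, Ankrd37, Ero1l, Kdm3a, Higd1a and Vegfa, were lower in the libraries labelled knockout in all 3 pairs, while Mxi1 differed by little and P4ha2, Ndrg1 and Plod1 differed in sign between pairs. Vegfa fell past the threshold (limma adjusted p = 0.0430 in the paired fit), and 9 of the 10 did not pass. In the unpaired limma fit 0 of 10 passed, against 0.00949% of all tested genes, and 6 had an unadjusted p under 0.05, all lower, against 2.91% of tested genes lower at that level. In the paired fit 1 of 10 passed, against 0.873% of tested genes, and the same 6 had an unadjusted p under 0.05, against 13.6% lower. The members had a median log2 change of -0.63, against -0.03 over all tested genes, and -0.89, -0.58 and -0.33 in pairs 1, 2 and 3. Without knockout replicates 2 and 3, the libraries with myeloid transcripts, knockout replicate 1 alone was set against the wild type libraries, without pairing. There the median was -0.74 with 9 of 10 lower, against -0.11 over all tested genes, of which 7013 of 10533 were lower. The count of 7 members lower in all 3 pairs, Mxi1 included, stands against 29.9% of all tested genes. The groups did not overlap for 5 members, all lower in knockout, against 6.29% of all tested genes. With reads recovered from the values, edgeR with the pairs called 0 of 10, against 0.37% of genes, with 6 at an unadjusted p under 0.05, all lower, against 11.1% of genes lower. DESeq2 called 2, P4ha1 and Ankrd37, both lower, against 0.75% of genes lower. With the pairs DESeq2 called the 6, all lower, against 3.99% of genes lower.

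**Figure D1:**
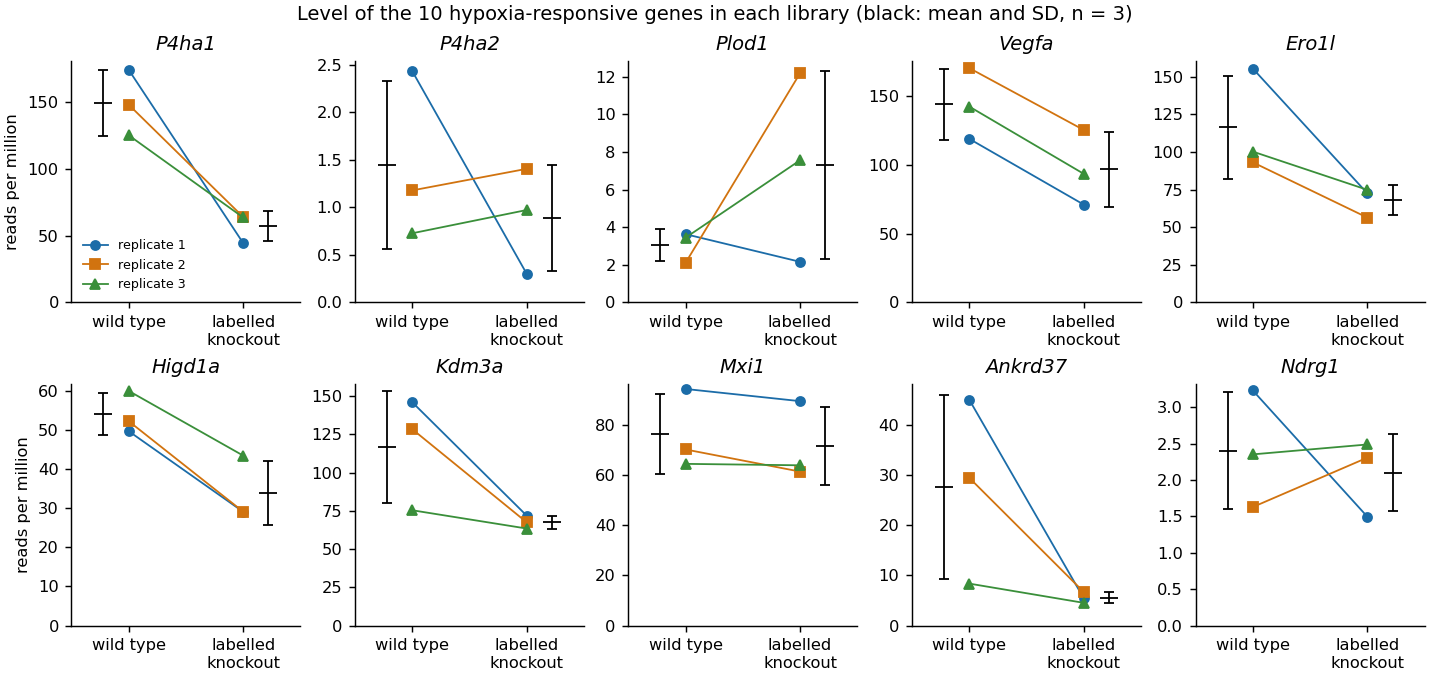
Library-size-scaled reads (vertical axes from 0) of the 10 genes by library, wild type on the left and knockout on the right of each panel. Lines connect the pairs, and black bars are the mean with its SD (n = 3). P4ha1 lay between 125 and 174 in wild type and between 44.5 and 64.0 in knockout, while Mxi1 overlapped between the groups.

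The sequence just upstream of the annotated starts is shown for 4 of the lower genes. They are 2 with the largest differences (P4ha1, Ankrd37), Higd1a, whose matches overlap, and Vegfa, which passed in the paired limma fit only. The sequences are the 250 bases before each start from RefSeq on GRCm38.p6, 5′ to 3′ on the strand of the gene, with matches to ACGTG or GCGTG on either strand in capitals. They span chr10:59323046-59323295 (plus strand) for P4ha1, chr8:45999851-46000100 (minus strand) for Ankrd37, chr9:121857797-121858046 (minus strand) for Higd1a and chr17:46032378-46032627 (minus strand) for the first of the Vegfa starts.
P4ha1: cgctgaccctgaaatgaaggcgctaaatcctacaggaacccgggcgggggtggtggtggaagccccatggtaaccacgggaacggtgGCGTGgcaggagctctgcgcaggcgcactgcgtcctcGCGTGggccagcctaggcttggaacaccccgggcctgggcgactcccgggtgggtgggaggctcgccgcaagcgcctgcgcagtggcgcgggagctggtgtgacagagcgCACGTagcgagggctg
Ankrd37: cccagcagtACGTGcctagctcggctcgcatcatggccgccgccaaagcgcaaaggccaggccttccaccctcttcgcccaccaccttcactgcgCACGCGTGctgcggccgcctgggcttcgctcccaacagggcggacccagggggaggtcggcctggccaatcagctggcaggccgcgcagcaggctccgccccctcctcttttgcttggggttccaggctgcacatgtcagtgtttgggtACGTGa
Higd1a: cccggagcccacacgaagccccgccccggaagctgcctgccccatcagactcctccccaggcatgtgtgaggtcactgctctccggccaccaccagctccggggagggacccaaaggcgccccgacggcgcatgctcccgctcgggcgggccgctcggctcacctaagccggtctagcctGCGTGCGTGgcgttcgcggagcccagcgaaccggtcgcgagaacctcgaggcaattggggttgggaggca
Vegfa: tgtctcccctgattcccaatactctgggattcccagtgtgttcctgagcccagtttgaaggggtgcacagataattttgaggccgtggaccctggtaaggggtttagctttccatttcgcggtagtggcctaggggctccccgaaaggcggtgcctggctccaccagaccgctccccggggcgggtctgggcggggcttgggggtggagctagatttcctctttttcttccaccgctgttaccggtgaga
P4ha1 holds 3 matches, Ankrd37 4 of which 2 overlap on opposite strands, and Higd1a 2 that overlap by 1 base on the same strand. The first Vegfa start holds 0 in this window, and the second start, downstream of it, holds 2. Of the 10 genes, 9 had an entry in the promoter table, Ero1l through its newer symbol Ero1a, and Ndrg1 had none. All 9 had a match upstream of at least 1 of their listed starts, and 7 of the 9 upstream of the first. Vegfa and Mxi1 had matches only before later starts, in windows that lie downstream of the first start. Whether such windows hold coding sequence was not tested. A share per gene was not computed for other genes. By start, 10 of 14 (71.4%) had a match, against 57.2% of 10615 starts of tested genes and 38.6% of all 32851 starts. G and C bases made up 48.4% to 80.8% of the 14 windows, against a median of 60.0% for tested genes. The shares were not adjusted for this. The genes with little or mixed difference carry them too: 3 matches for P4ha2, 1 for Plod1, and 1 at each of 2 of the 3 Mxi1 starts. The E-box CACGTG, bound by MYC and MXI1 with MAX, contains ACGTG and was found at 0 of the 14 starts, against 8.63% of starts of tested genes. A match is a description of the letters and does not show binding.

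**Figure D2:**
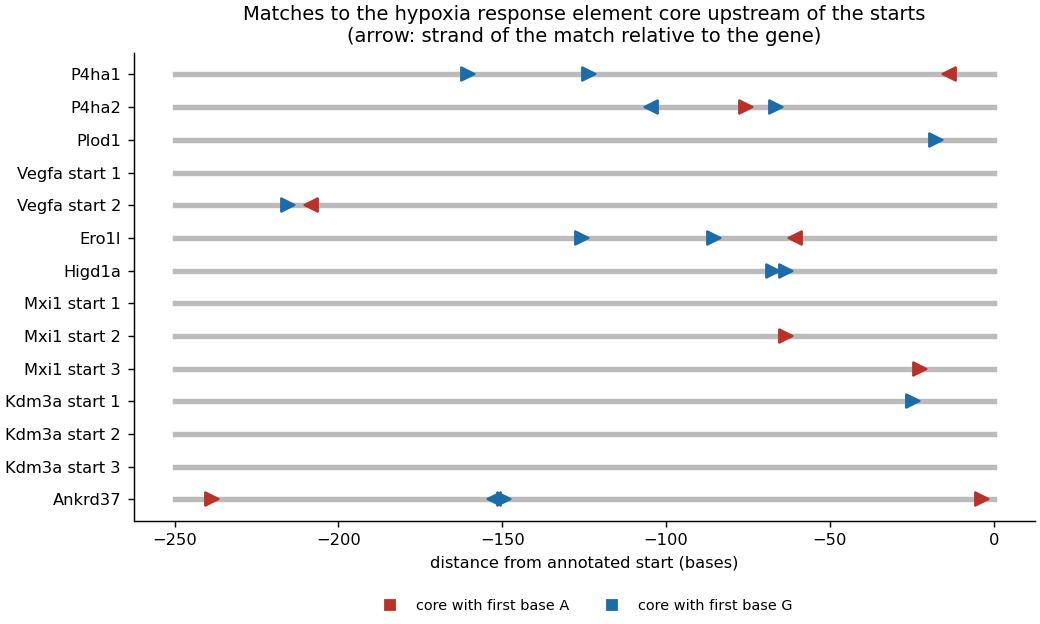
Position of each match to the hypoxia response element core in the 250 bases upstream of 14 annotated starts of 9 genes (horizontal axis, distance from the start in bases), with arrows for the strand relative to the gene and colour for the first base of the core. P4ha1, P4ha2 and Ero1l hold 3 matches each and Ankrd37 4, while the first Vegfa and first Mxi1 starts hold 0.

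The 3 collagen-modifying enzymes differed from each other: P4ha1 was lower in each pair, while P4ha2 and Plod1 were lower in pair 1 and higher in pairs 2 and 3. P4ha1 (ENSMUSG00000019916) encodes the catalytic alpha subunit of collagen prolyl 4-hydroxylase, which makes the hydroxyproline that stabilises the collagen triple helix. P4ha1 was at 174, 148 and 125 in wild type against 44.5, 64.0 and 63.7 in knockout. All knockout libraries were below all wild type ones, with no overlap, and knockout replicate 1 was the lowest. The mean was 2.60-fold lower, 149 ± 24.5 against 57.4 ± 11.2 (SD, n = 3 each). The log2 change was -1.37 (unpaired 95% interval -1.83 to -0.91). P4ha1 missed the threshold (limma adjusted p = 0.171 unpaired and 0.0554 paired, exact two-sided permutation p = 0.1). DESeq2 called it without the pairs (adjusted p = 2.92e-08) and with them (1.36e-11), and edgeR with the pairs did not (0.0775).

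P4ha2 (ENSMUSG00000018906), the second catalytic subunit, was close to the lower limit of measurement, at 2.43, 1.18 and 0.727 in wild type and 0.299, 1.41 and 0.972 in knockout, from 9 to 91 reads per library. The groups overlapped, and the difference was -1.40 on the log2 scale in pair 1 but 0.14 and 0.19 in pairs 2 and 3 (paired adjusted p = 0.612). P4ha2 entered the tests with a mean of 1.45 in wild type and 0.892 in knockout, just over the minimum mean of 1 over all libraries. Plod1 (ENSMUSG00000019055), a lysyl hydroxylase that prepares collagen for cross-linking, was at 3.63, 2.11 and 3.44 in wild type and at 2.16, 12.2 and 7.56 in knockout. It was lower in knockout replicate 1 and higher in knockout replicates 2 and 3, the libraries with the high myeloid markers, and the groups overlapped. Its log2 change was 0.83 (unpaired 95% interval -0.48 to 2.14, paired adjusted p = 0.377). Without both of those knockout libraries it was -0.34. Without pair 1 it was 1.52 and passed the paired limma test (adjusted p = 0.0110), as did 840 of the 10533 tested genes in that setting. The part of the myeloid transcripts in the Plod1 difference was not tested.

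Other collagen-modifying genes were fixed as a list of 12, of which 7 were tested, with a median log2 change of 0.02. In limma 0 of the 7 passed in either direction, against 0.00949% of all tested genes unpaired and 0.873% paired. P4hb, the disulfide isomerase that is also the beta subunit of prolyl 4-hydroxylase, was at 678, 570.0 and 514 in wild type and 459, 558 and 391 in knockout, so the groups overlapped (log2 change -0.33, paired adjusted p = 0.1996). P4hb was called lower by DESeq2 with the pairs (adjusted p = 0.0448). The cyclophilin Ppib (log2 change -0.02) and the collagen galactosyltransferase Colgalt1 (0.03) differed little. P4ha3, another alpha subunit, was under 0.25 in each library and was not tested.

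Vegfa (ENSMUSG00000023951), the secreted growth factor that drives blood vessel growth, was at 119, 170.5 and 142.5 in wild type against 71.2, 125 and 93.6 in knockout. The groups overlapped, since knockout replicate 2 was above wild type replicate 1, yet each knockout library was below its own partner. The within-pair differences were -0.73, -0.44 and -0.60 on the log2 scale, the narrowest range among the 6 lower genes. The mean fell from 144 ± 25.8 to 96.7 ± 27.3 (SD, n = 3 each), a log2 change of -0.59 (paired 95% interval -0.77 to -0.41). Vegfa passed with the replicate block (limma adjusted p = 0.0430) and not without it (0.9998). DESeq2 with the pairs called it (7.94e-09), and edgeR with the pairs did not (0.0599). The call held without pair 1 (limma adjusted p = 0.00584), where limma called 840 of the 10533 tested genes and 6 of the 10 members. It was lost without pair 2 (0.194) or pair 3 (0.247). In those 2 settings limma called 0 genes in all, with 1415 and 1240 at an unadjusted p under 0.05. In the unpaired fit its log2 change was -0.39 without knockout replicate 1 and -0.99 without knockout replicates 2 and 3.

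The VEGF family and receptor list had 9 genes, of which 4 were tested. In limma 0 of the 4 passed, against 0.00949% of all tested genes unpaired and 0.873% paired. Vegfb, a related ligand, was at 8.25, 10.2 and 9.16 in wild type and 7.28, 7.40 and 7.73 in knockout, without overlap (log2 change -0.26, paired adjusted p = 0.239). Placental growth factor, Pgf, was at 1.58, 5.29 and 12.5 and at 2.43, 9.81 and 7.71, with overlap. Nrp1, a co-receptor for VEGF, was at 1.74, 4.61 and 1.67 in wild type and at 0.998, 40.2 and 19.0 in knockout, high in the same 2 libraries as the myeloid markers (paired adjusted p = 0.240), whose part in it was not tested. The receptor Kdr was at most 1.13 and was not tested.

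**Figure D3:**
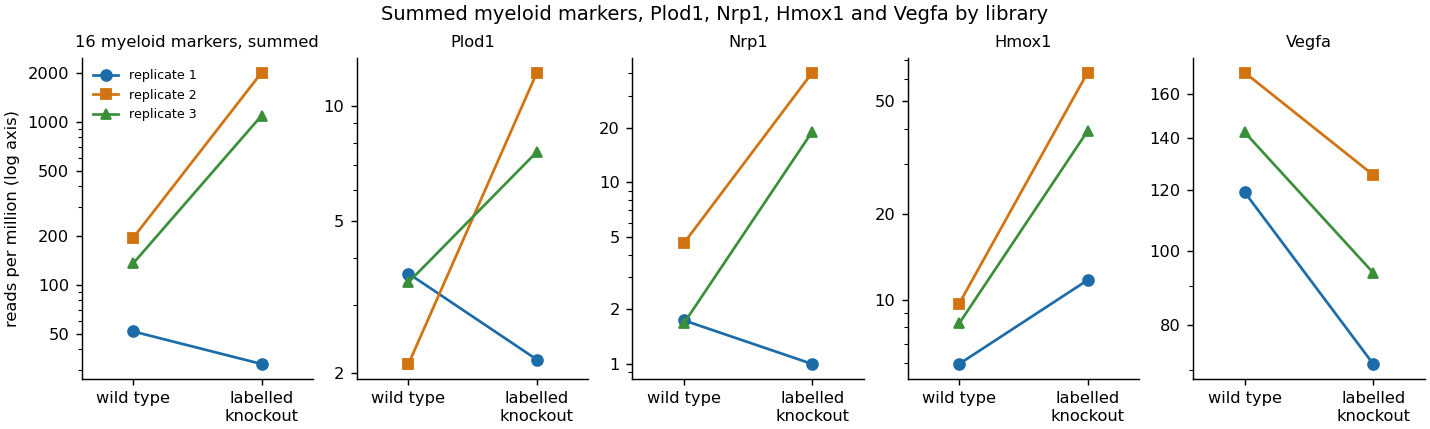
Summed level of 16 myeloid markers and levels of Plod1, Nrp1, Hmox1 and Vegfa per library, in library-size-scaled reads (log axes, each with its own range). Lines connect the pairs. The myeloid sum reached 1998 and 1088 in knockout replicates 2 and 3, where Plod1 was at 12.2 and 7.56, while Vegfa was lower than its partner in each pair.

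Ero1l (ENSMUSG00000021831), the endoplasmic reticulum oxidase that supplies disulfide bonds to folding proteins such as VEGFA, was at 155, 93.1 and 100.2 in wild type and at 72.5, 56.4 and 74.8 in knockout. All knockout libraries were below all wild type ones, and wild type replicate 1 was well above the others. The mean was 116 ± 34.1 and 67.9 ± 10.0 (SD, n = 3 each). The log2 change was -0.74 (unpaired 95% interval -1.28 to -0.20). Ero1l did not pass in limma (paired adjusted p = 0.0852, exact permutation p = 0.1), and DESeq2 with the pairs called it (2.22e-05). Its paralog Ero1lb, named after its values were seen, was at 27.1, 41.1 and 61.8 and at 27.7, 32.4 and 50.2, with overlap (log2 change -0.20, paired adjusted p = 0.284). Of 9 genes of the disulfide relay, 7 were tested. In limma 0 of the 7 passed, against 0.00949% of all tested genes unpaired and 0.873% paired. The log2 changes of the isomerases Pdia3, Pdia6 and Pdia4 were 0.14, 0.18 and 0.28. Among the 7, DESeq2 with the pairs called Pdia4 higher (adjusted p = 0.0206) and the peroxiredoxin Prdx4 lower (0.00981). It called 7.01% of all tested genes in either direction. Chaperones, transcription factors and effectors of the unfolded protein response, 17 genes all tested, had a median log2 change of 0.14. The median was -0.09 without knockout replicates 2 and 3. There were 14 higher, against 4525 of all 10533 tested genes, and 3 lower. In pairs 1, 2 and 3 the medians were 0.04, 0.41 and -0.02, with 9, 14 and 7 higher. In limma 0 of the 17 passed, against 0.00949% of all tested genes unpaired and 0.873% paired. Of the 17, DESeq2 with the pairs called 1, against 7.01% of all tested genes. It was Herpud1, a protein of endoplasmic reticulum degradation, which was higher (log2 change 0.31, adjusted p = 0.0484).

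Higd1a (ENSMUSG00000038412), a small mitochondrial inner membrane protein that binds respiratory complexes, was at 49.7, 52.2 and 60.0 in wild type and at 29.1, 29.1 and 43.4 in knockout. The groups were separate, and knockout replicate 3 lay closest to wild type. The mean was 54.0 ± 5.36 and 33.9 ± 8.28 (SD, n = 3 each), with a log2 change of -0.68 (paired 95% interval -0.90 to -0.45). Higd1a lay just outside the threshold in limma with the pairs (adjusted p = 0.0506), and DESeq2 with the pairs called it (2.01e-05). Higd2a, another member of the family, was at 36.0, 27.5 and 33.9 and at 29.9, 26.7 and 31.3, with overlap (log2 change -0.14, paired adjusted p = 0.332). Mgarp, a mitochondrial protein induced by HIF, is given below with the other hypoxia genes.

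Kdm3a (ENSMUSG00000053470), a JmjC demethylase of histone H3 lysine 9 that itself needs oxygen, was at 146, 128 and 75.3 in wild type and at 71.7, 67.4 and 63.4 in knockout. The groups did not overlap, but wild type replicate 3 lay almost at the knockout level. The knockout libraries spanned 1.13-fold from lowest to highest and the wild type ones 1.94-fold. The log2 changes in pairs 1, 2 and 3 were -1.01, -0.92 and -0.25. Between the groups the change was -0.73 (unpaired 95% interval -1.33 to -0.13, paired limma adjusted p = 0.121). DESeq2 with the pairs called Kdm3a (adjusted p = 0.000719). Of the 17 other JmjC demethylases listed, 15 were tested, with a median log2 change of -0.09. In limma 0 of the 15 passed, against 0.00949% of all tested genes unpaired and 0.873% paired. DESeq2 with the pairs called 0 of the 15, against 7.01% of all tested genes. Kdm4b and Kdm4c of this list are also in the list of other hypoxia-responsive genes below. The log2 changes of Kdm5a, Jmjd1c and Kdm5c were -0.09, 0.09 and -0.13.

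Ankrd37 (ENSMUSG00000050914), an ankyrin repeat protein and a well-known HIF1 target, had the largest log2 change of the 10 and the widest fold range among wild type libraries. It was at 45.1, 29.5 and 8.37 in wild type against 5.46, 6.70 and 4.53 in knockout. The knockout libraries lay close together, while wild type replicates 1 and 3 differed 5.39-fold, so the size of the difference depended on the wild type library. The mean was 27.6 ± 18.4 and 5.56 ± 1.09 (SD, n = 3 each), 4.97-fold. The log2 change was -1.86 (unpaired 95% interval -3.27 to -0.45). The changes within pairs were -2.84, -1.99 and -0.76. Ankrd37 did not pass in limma (paired adjusted p = 0.115), and DESeq2 called it with the pairs (5.15e-06) and without (0.0154).

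Mxi1 (ENSMUSG00000025025), which pairs with MAX and opposes MYC, was at 94.3, 70.2 and 64.4 in wild type and at 89.4, 61.3 and 63.9 in knockout. Replicate 1 was the highest in both groups, and the groups overlapped. The log2 change was -0.09 (paired 95% interval -0.24 to 0.06, adjusted p = 0.409), so a fall of the size seen in Vegfa lay outside the paired interval. Values are sums over the gene, so the transcript forms of Mxi1, of which hypoxia is known to induce one, were not separated. The 10 other genes of the MAX network had a median log2 change of -0.11. In limma 0 of the 10 passed, against 0.00949% of all tested genes unpaired and 0.873% paired. Myc, which includes the transgene if its reads were counted there, was at 846, 684 and 618 and at 727, 456 and 532, with overlap (log2 change -0.34, paired adjusted p = 0.153), Mga at -0.06 and Max at 0.02. DESeq2 with the pairs called 2 of the 10 lower, against 3.99% of all tested genes, Myc (adjusted p = 0.0299) and Mycn (9.99e-07). Mycn was at 0.855, 16.02 and 34.0 in wild type against 0.399, 5.997 and 14.6 in knockout.

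Ndrg1 (ENSMUSG00000005125), a stress-induced protein used widely as a hypoxia marker, was barely detected, at 3.23, 1.63 and 2.35 in wild type and 1.497, 2.31 and 2.49 in knockout, from 45 to 121 reads per library. The groups overlapped and the pairs differed in sign, with log2 changes of -0.76, 0.33 and 0.06 (paired adjusted p = 0.808). The paired 95% interval ran from -0.76 to 0.51, which holds changes in both directions. Its relative Ndrg3 was at 27.6, 32.0 and 27.2 and at 25.4, 32.5 and 25.4 (log2 change -0.06), while Ndrg2 and Ndrg4 were under 0.7 in each library.

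**Figure D4:**
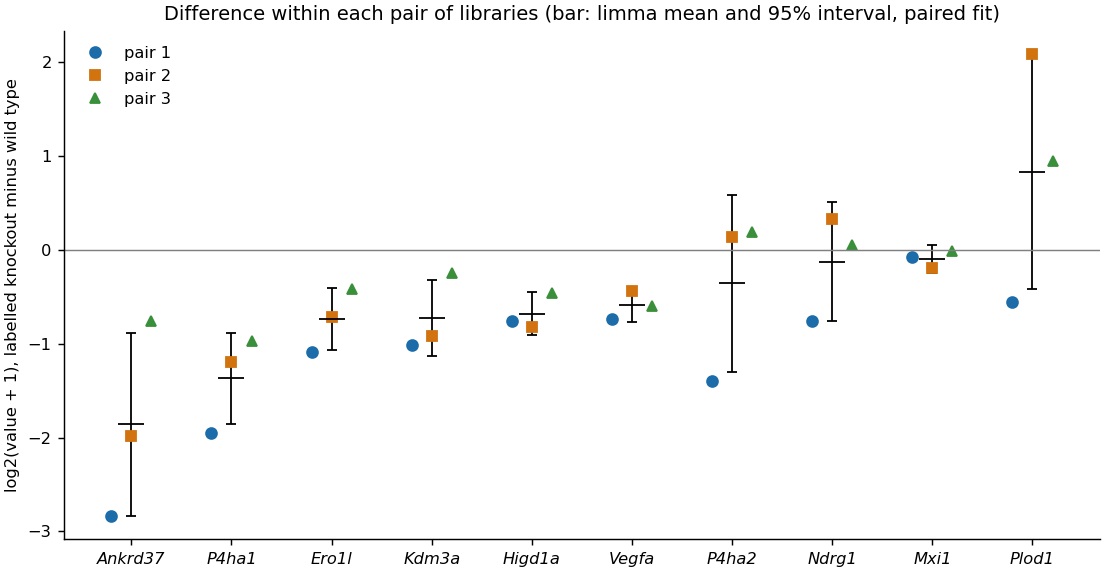
Difference of log2(value + 1), knockout less wild type, within each pair of libraries (symbols) for the 10 genes, ordered by mean, with black bars for the mean and 95% interval of the paired limma fit. Ankrd37 spans -2.84 to -0.76, Vegfa -0.73 to -0.44, and Plod1 lies below 0 in pair 1 and above 0 in pairs 2 and 3.

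Among the 6 lower genes the differences were largest in pair 1 for 5, all but Higd1a, and smallest in pair 3 for 5, all but Vegfa. The libraries of pair 1 stood apart from the other 4 over all tested genes: on the first principal component (54.6% of the variance) wild type and knockout replicate 1 were at 43.5 and 45.3, and the others between -35.7 and -10.6. The part of this in the larger differences of pair 1 was not tested. Of the 6 lower genes, the 3 with the widest wild type range (Ankrd37, Kdm3a and Ero1l) had knockout values within 1.13-fold to 1.48-fold of each other. The other 3 ranged more widely in knockout than in wild type: P4ha1 1.44-fold against 1.39-fold, Vegfa 1.76-fold against 1.43-fold and Higd1a 1.49-fold against 1.21-fold. Across the 6 libraries the 15 pairs of the 6 lower genes had a median Pearson r of 0.78 (range 0.29 to 0.99), highest for Kdm3a with Ankrd37. These values are descriptions over 6 libraries that share the group difference. The 6 tested genes outside the set whose level over the 6 libraries was most like the members' mean standardised level were Hsbp1 (r = 0.99), Gzf1 (0.98), Inpp5a (0.98), Dhx32 (0.98), Kdm4b (0.98) and Asl (0.97), also over 6 libraries. Their own log2 changes were small, from -0.32 for Gzf1 to -0.10 for Hsbp1, and none passed in either limma fit. They include Kdm4b from the hypoxia list.

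Most other hypoxia-responsive genes were lower in knockout as well, 28 of the 36 tested, against 6008 of all 10533 tested genes. Of a list of 48, 36 were tested, with a median log2 change of -0.35, against -0.03 over all tested genes. In the unpaired limma fit 0 of the 36 passed, against 0.00949% of all tested genes. In the paired limma fit 8 fell (against 0.741% of all tested genes), 0 rose and 28 did not pass. The 6 with the smallest p were the mitophagy receptors Bnip3l (log2 change -1.56) and Bnip3 (-2.88), the mitochondrial protein Mgarp (-1.92), the pyruvate dehydrogenase kinase Pdk1 (-1.29), the zinc finger protein Zfp395 (-1.11) and the cytokine Mif (-0.88). Mgarp was at 17.0, 16.8 and 23.0 in wild type against 2.30, 4.17 and 7.42 in knockout, without overlap (paired adjusted p = 0.0404). Fam162a (-1.27) and Pgm2 (-1.47, the deposited symbol for ENSMUSG00000025791) also passed in the paired limma fit and were named after their values were seen. The cytokine Mif, secreted by many immune cells, was at 732, 624 and 496 in wild type and at 325, 370 and 301 in knockout, without overlap (paired adjusted p = 0.0429). Zfp395 was at 14.5, 10.0 and 8.47 and at 6.59, 4.69 and 2.68, also without overlap (paired adjusted p = 0.0423). The 2 genes named on the higher side did not pass. Heme oxygenase, Hmox1, was at 5.93, 9.68 and 8.24 and at 11.7, 63.1 and 39.3, highest in the libraries with myeloid markers (paired adjusted p = 0.0852), and the nuclear receptor Rora at 0.5075, 0.526 and 0.406 and at 0.832, 3.01 and 1.66 (0.182). Without knockout replicates 2 and 3 the list's median was -0.50 and 31 of 36 were lower, against 7013 of 10533 tested genes. EdgeR with the pairs called 2 of the 36 (against 0.37% of all tested genes) and DESeq2 with the pairs 16 (against 7.01% of all tested genes), 15 of them lower and Hmox1 higher.

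**Figure D5:**
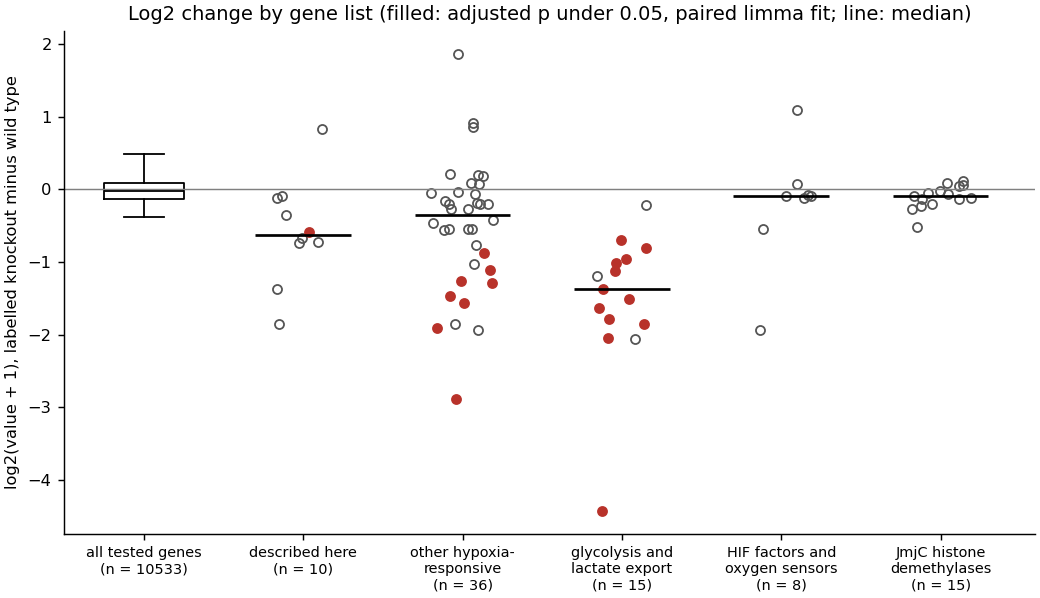
Change in log2(value + 1), knockout less wild type, for the tested genes of 5 lists (points) beside all 10533 tested genes (box from the lower to the upper quartile, whiskers from the 5th to the 95th percentile); filled points passed the paired limma fit and lines are medians. The 10 genes described here have a median of -0.63, the other hypoxia genes -0.35, glycolysis and lactate export -1.37 and the JmjC demethylases -0.09.

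Genes of glycolysis and lactate export, given for scale, had a larger median change than the 10 genes. Of 15 tested, 12 fell in the paired limma fit, against 0.741% of all tested genes, and the median log2 change was -1.37. In the unpaired limma fit 0 of the 15 passed, against 0.00949% of all tested genes. All 15 were lower in all 3 pairs, against 7 of the 10 genes and 29.9% of all tested genes. The difference between the lists was not tested. Among the factors and sensors that set the response, 6 of 8 tested were lower, against 6008 of all 10533 tested genes. The median log2 change of the 8 was -0.09. Egln1 and Egln3 are also in the list of other hypoxia-responsive genes above, so the counts of the lists share them. Hif1a, the oxygen-regulated subunit, was at 96.8, 142 and 134 in wild type and 112, 148 and 130 in knockout (log2 change 0.07, paired adjusted p = 0.545). Egln1, the main HIF prolyl hydroxylase and itself a HIF target, was at 93.1, 125 and 110 in wild type and at 62.9, 77.1 and 83.6 in knockout, without overlap (log2 change -0.55, paired adjusted p = 0.0506), and Egln2 had a log2 change of -0.12. Egln3, of the same family and named after its values were seen, had the largest change of the 8. It was at 34.4, 38.7 and 22.4 in wild type against 1.73, 12.8 and 14.5 in knockout, without overlap (log2 change -1.94, limma paired adjusted p = 0.172). Of 8 tested factors and sensors 0 passed in either limma fit, against 0.00949% of all tested genes unpaired and 0.873% paired. DESeq2 with the pairs called 2 of them, Egln1 lower and Epas1 higher, against 7.01% of all tested genes. Epas1 was at 0.641, 0.526 and 0.2996 in wild type against 1.26, 5.67 and 1.11 in knockout.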

How the data were processed

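RNA was sequenced from 3 libraries per group. Per the submitters' processing notes the build was mm9, and the tools, whose roles are not stated, included HTSeq, STAR 2.4.2a, CASAVA and edgeR. The sources used here name no annotation or strand setting. The deposited table calls its values FPKM, but the authors' values are a signal of reads divided by an effective library size: in each library 100% were whole multiples of 1 step (tolerance 0.01 reads), so whole reads were recovered.

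Genes with a mean of at least 1 (10533 of 21448) were tested with limma 3.58.1 in R 4.3.3 on log2(value + 1), two-sided and with a variance trend, at a Benjamini-Hochberg adjusted threshold of 0.05. On this scale the changes of low genes come out too small. FPKM had been foreseen, and limma was kept. edgeR 4.0.16 (quasi-likelihood) and DESeq2 1.42.0 on recovered reads were alternatives. The scripts were tested on simulated data. Across genes, deviations of equal-numbered libraries from their group means correlated (0.73, 0.73 and 0.84), so these were treated as pairs, though the labels name no shared mouse. Members and lists were chosen with earlier results of these data known. Named genes are all members, in each list of relatives up to 3 with the highest mean value, which gene length affects, and any passing a test, up to 6 per direction with the smallest paired p in the hypoxia list, and the 6 most similar in pattern. Promoter sequences are from RefSeq (GRCm38.p6); no coordinate was joined to mm9. Plots used Python 3.11.15 and matplotlib 3.10.9.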

Additional observations from a re-analysis of the deposited data

How the results depend on the processing

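Over 22 alternatives, the median log2 change of the 10 genes stayed between -0.74 and -0.49, and 6 of the genes (P4ha1, Ankrd37, Ero1l, Kdm3a, Higd1a and Vegfa) kept their sign in each. With the replicate block, limma called 92 genes and 1 member, edgeR 39 and 0, and DESeq2 738 and 6. Without the block, DESeq2 called 110 genes and 2 members, P4ha1 and Ankrd37. Limma called 2 genes with a minimum mean of 5, where P4ha2 and Ndrg1 were not tested. Limma without a filter, limma with quantile normalization and edgeR without the block each called 0 genes, with 791, 431 and 582 at an unadjusted p under 0.05. With any 1 library left out, limma called 0 genes and 0 members, with 234 to 722 genes and 3 to 6 members at that level. With a pair left out and the replicate block, it called 0 to 840 genes and 0 to 6 members, the 840 and 6 being without pair 1, where 5 of the 6 were lower and Plod1 was higher, and Kdm3a was not called (adjusted p = 0.0517). Signs turned for 4 genes. Without 1 library, Mxi1 ran from -0.26 to 0.068 and Ndrg1 from -0.30 to 0.046. Without a pair, under the block, Ndrg1 ran from -0.35 to 0.19 and P4ha2 from -0.63 to 0.17. Without knockout replicates 2 and 3, which left 1 knockout library, Mxi1 was 0.25 and Plod1 -0.34. The cause was not tested. P4ha2, Ndrg1 and Plod1 had under 100 reads in at least 1 library. The block changed no other member's limma call than Vegfa's.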
